A study of Rattus norvegicus with 8 samples.

Results

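GABAergic interneurons are the inhibitory neurons of the hippocampus, and 9 genes that mark them were followed here: Gad1, Gad2, Slc32a1, Pvalb, Sst, Cort, Vip, Npy and Htr3a. They were chosen by name, as established markers of these cells, with earlier results of these data known. The probes were those that the array design names for them. All 9 genes had a probe, with 11 probes among the 45598 non-control probes of the array, and all 11 passed the filter on dim probes, so the 9 genes stand among 22549 genes tested. Cultured hippocampal neurons of newborn Wistar rats (postnatal day 0 to 1) received 1 of 2 lentiviral vectors, an shRNA against Sirt6 (4 arrays) or a scrambled shRNA (4 arrays). Virus was added at a multiplicity of infection of 6 once the cells had been in culture for 3 days, and total RNA was harvested after a further 7 days, on day 10. SIRT6 is a sirtuin, an enzyme that uses NAD to remove acyl groups from histones and other proteins, and the study set out to learn what it does while neurons take their shape. Both groups therefore carried virus, and the knockdown rests on 1 shRNA. Since no label tells if replicates were separate dishes, animals or preparations, every p-value is set against sample-to-sample spread that may be technical.

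Interneurons make GABA from glutamate with the enzymes GAD67 and GAD65, encoded by Gad1 and Gad2, and load it into synaptic vesicles with the transporter VGAT, encoded by Slc32a1. The principal cells of the hippocampus are glutamatergic and do not rely on this machinery. Interneurons fall into classes that are told apart by a calcium-binding protein (parvalbumin, from Pvalb), by neuropeptides (somatostatin from Sst, cortistatin from Cort, vasoactive intestinal peptide from Vip, neuropeptide Y from Npy) or by an ion channel (the serotonin receptor subunit 5-HT3A, from Htr3a). Cells with Pvalb or Sst arise mainly in the medial ganglionic eminence of the embryonic brain, and cells with Htr3a, many of them also with Vip, mainly in the caudal one. Cortistatin is a close relative of somatostatin and acts on the same receptors.

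Cort is the only one of the 9 genes with more than 1 bright probe, so its probes show whether separate readings of 1 transcript gave the same answer. The probes lie on chromosome 5 on the minus strand in the rn4 coordinates that the files give, A_44_P345298 at chr5:166199061-166199120 and A_44_P1082114 at chr5:166199035-166199094. They share 34 bases, written in capitals, and are therefore not independent readings.
Cort A_44_P345298: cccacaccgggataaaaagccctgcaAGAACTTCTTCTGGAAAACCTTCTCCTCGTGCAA
Cort A_44_P1082114: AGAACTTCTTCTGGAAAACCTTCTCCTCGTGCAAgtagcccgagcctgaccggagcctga

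The upstream sequences are shown because neuropeptide genes are textbook targets of CREB, the activity-driven factor that binds the cAMP response element. RefSeq promoters of the assembly GRCr8 matched 8 of the 9 genes, Htr3a being the exception, and the 250 bases before and 50 bases from each start were searched on both strands. The full element TGACGTCA was in the window of Sst and of none of the other 7, and in 1.83% of all 33469 promoters. In Sst it began at position 3, with the start as position 1, so it lies just inside the transcript that RefSeq annotates (chr11:90461537-90461566, plus strand, element in capitals).
Sst: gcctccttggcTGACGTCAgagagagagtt
The core TGACG, which the full element contains, was in the windows of Sst, Slc32a1, Pvalb, Cort and Vip, and in 21.2% of all promoters. Before the start, it began at position -180 in Slc32a1, at -241 in Pvalb, at -105 in Cort and at -97 in Vip, and Slc32a1 held it again at position 27. The 250 bases before the start of these 4 genes, 5′ to 3′ on the strand of the gene, with the core in capitals (in Cort it reads CGTCA, on the other strand), are as follows.
Slc32a1 (chr3:167686995-167687244, plus strand): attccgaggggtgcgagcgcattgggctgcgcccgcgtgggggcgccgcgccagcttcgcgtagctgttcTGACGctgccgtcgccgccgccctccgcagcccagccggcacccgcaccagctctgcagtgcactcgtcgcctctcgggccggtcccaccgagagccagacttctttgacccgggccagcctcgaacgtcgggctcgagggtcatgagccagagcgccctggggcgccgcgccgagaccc
Pvalb (chr7:111666290-111666539, minus strand): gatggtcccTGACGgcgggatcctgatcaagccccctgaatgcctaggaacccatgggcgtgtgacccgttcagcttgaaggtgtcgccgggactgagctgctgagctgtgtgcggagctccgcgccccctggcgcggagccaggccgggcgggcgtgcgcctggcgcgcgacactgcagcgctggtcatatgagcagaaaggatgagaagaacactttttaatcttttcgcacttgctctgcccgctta
Cort (chr5:164845125-164845374, minus strand): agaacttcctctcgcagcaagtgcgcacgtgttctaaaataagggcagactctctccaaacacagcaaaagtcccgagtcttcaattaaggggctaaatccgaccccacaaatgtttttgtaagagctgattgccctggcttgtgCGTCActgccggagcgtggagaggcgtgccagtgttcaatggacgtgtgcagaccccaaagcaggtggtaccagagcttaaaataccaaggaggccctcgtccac
Vip (chr1:44470230-44470479, plus strand): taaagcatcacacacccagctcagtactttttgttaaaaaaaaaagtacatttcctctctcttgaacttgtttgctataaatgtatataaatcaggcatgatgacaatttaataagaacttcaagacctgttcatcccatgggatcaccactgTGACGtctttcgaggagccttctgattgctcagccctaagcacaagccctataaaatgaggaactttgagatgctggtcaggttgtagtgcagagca
The windows of Gad1, Gad2 and Npy did not hold these letters, which says nothing of sites outside the windows. Of the 5 genes whose windows did, Pvalb and Cort fell, Vip rose, and Sst and Slc32a1 did not pass the test. Gad1, Gad2 and Npy, whose windows did not, all fell. The values are given below gene by gene, and a link between the core and the changes was not tested.

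Sirt6 itself had processed signals of 486, 489, 484 and 446 with Sirt6 shRNA, against 1337, 1318, 1347 and 1343 with scrambled shRNA. Its log2 fold change was -1.53 ± 0.040 (SE, n = 4 each), with a limma adjusted p of 5.50e-06, the smallest of all genes. Between 60.4% and 65.3% of probes were well above background per array, and all 12 pan-neuronal markers examined were so on all 8 arrays. All 8 arrays lay on 1 slide, with the Sirt6 shRNA arrays in row 2 and the scrambled arrays in row 1. An effect of the slide row and one of the shRNA cannot be told apart. Processed signals are given below as the scanner software wrote them, with arrays in replicate order. Fold changes are on the log2 scale after each array's 75th percentile was subtracted. A gene was called when its adjusted p, over all genes, was under 0.05.

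Of the 9 genes, 5 were lower with Sirt6 shRNA (Cort, Pvalb, Gad1, Gad2 and Npy), 2 were higher (Htr3a and Vip) and 2 were not called (Sst and Slc32a1). Across all genes tested, 30.4% were called, 14.8% as lower and 15.6% as higher. The same 7 genes had normalized values that did not overlap between the groups, which held for 33.4% of all genes. The median log2 fold change of the 9 genes was -0.23, beside 0.02 for all genes, and their median absolute log2 fold change was 0.31, beside 0.14. Cort, Pvalb and Htr3a changed by more than 1.5-fold, as did 5.63% of all genes. As the 9 genes were chosen with earlier results known, these comparisons with all genes are descriptive. RNA was taken from whole cultures, so fewer cells of a class and less RNA per cell cannot be told apart in any of these values.

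**Figure D1:**
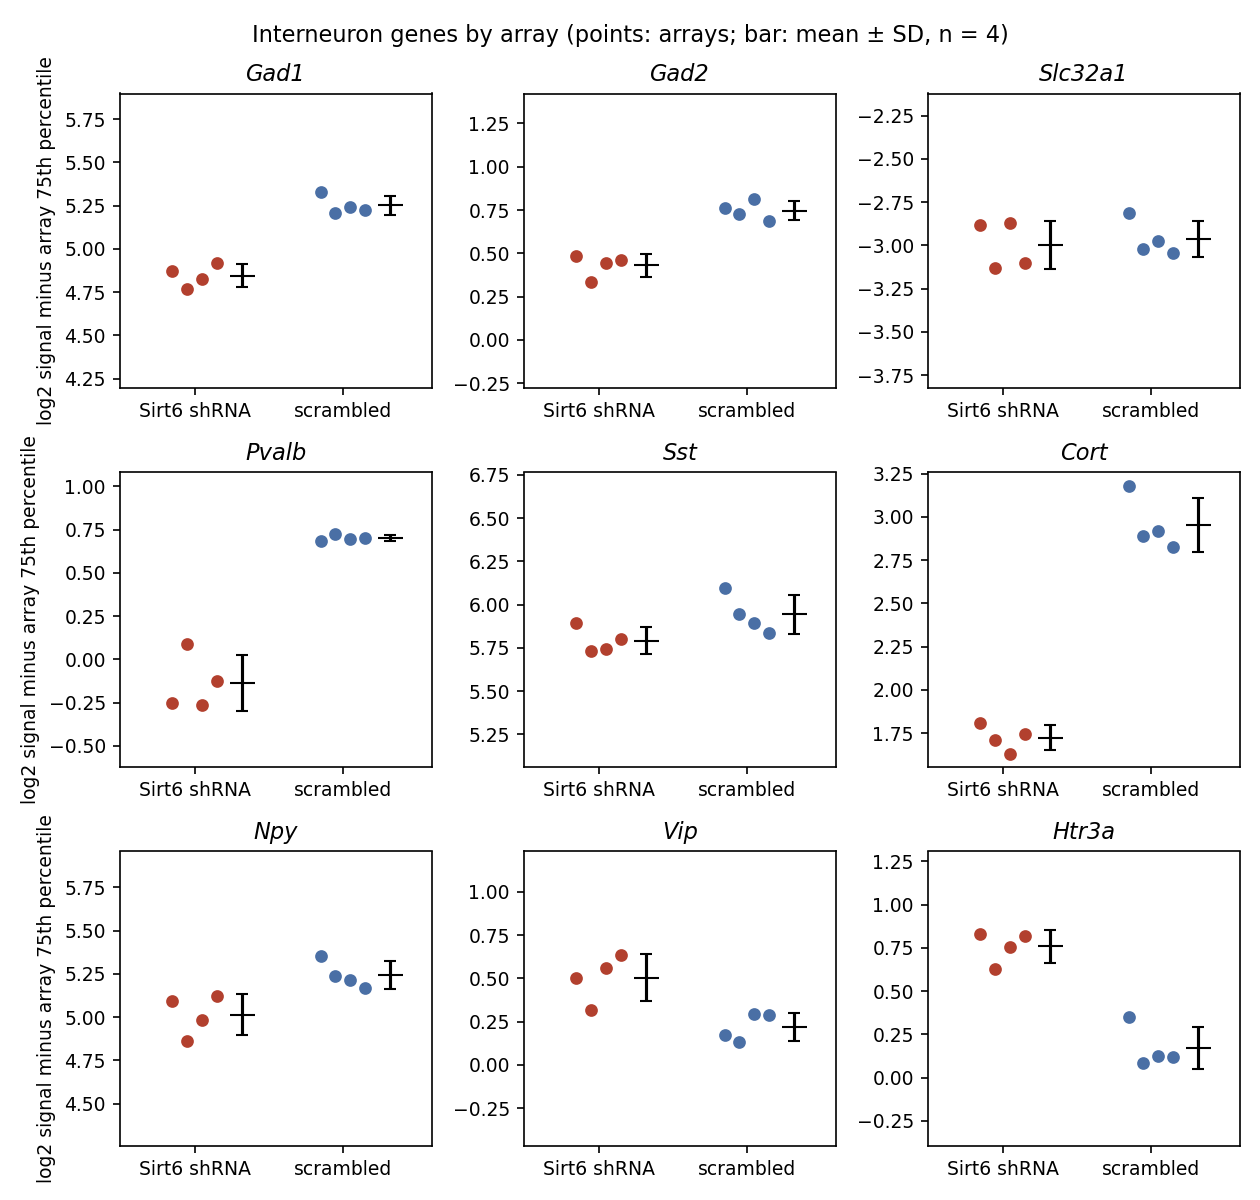
Normalized log2 signal (log2 processed signal minus the array's 75th percentile, vertical axis) of the 9 interneuron marker genes on each of the 8 arrays, 1 panel per gene, with axes that cover the same span around different centres. Points are arrays, with the 4 Sirt6 shRNA arrays left of the 4 scrambled arrays, and bars give the mean ± SD. The groups stand apart for 7 genes and overlap for Sst and Slc32a1.

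Both GABA-synthesising enzymes fell, whereas the vesicular transporter was not called. Gad1, the gene of GAD67, which supplies most of the GABA in the brain, was read by 10 spots per array. Its processed signal was 9703, 8896, 9711 and 9779 with Sirt6 shRNA, against 12584, 11836, 12608 and 11992 with scrambled shRNA. Every Sirt6 shRNA array lay below every scrambled array. The difference on the log2 scale was -0.41 ± 0.047 (SE, n = 4 each; limma adjusted p = 0.000600), which is 75.5% of the scrambled level. A second Gad1 probe was dim, at 47.0, 47.0, 47.7 and 40.5 with Sirt6 shRNA, against 80.8, 72.8, 79.9 and 56.0 with scrambled shRNA. It also stood lower on every Sirt6 shRNA array, by -0.70 ± 0.12 (SE; limma adjusted p = 0.00382 over all probes kept, of which 28.4% were called). Its probe lies in rn4 at chr3:52813028-52813087, upstream of the bright probe at chr3:52829951-52830010 on the same strand.

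Gad2 encodes GAD65, the isoform held at nerve terminals. Its processed signal was 464, 412, 464 and 446 with Sirt6 shRNA, against 530, 530, 584 and 516 with scrambled shRNA. The groups did not overlap. Its log2 fold change was -0.31 ± 0.047 (SE, n = 4 each; limma adjusted p = 0.00206). With arrays scaled on the spike-in RNA in place of the 75th percentile, the Gad2 change was -0.24 and no longer called (adjusted p = 0.122). Slc32a1 was dim, with 44.9, 37.3, 46.7 and 37.6 with Sirt6 shRNA and 44.4, 39.4, 42.4 and 39.0 with scrambled shRNA, although it was well above background on all 8 arrays. The groups overlapped across nearly their whole range. The log2 fold change of -0.03 had a 95% confidence interval of -0.22 to 0.15 (limma adjusted p = 0.781), which does not reach the fall of Gad1 or of Gad2.

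Whether the enzymes and the transporter moved apart was tested on the log2 ratio within each array, where the array's scaling cancels. Each of 8 such ratios between these genes was compared with a two-sided exact permutation test, and p-values were adjusted over the 8 ratios. With 4 arrays against 4, this test can give no p below 0.0286. The ratios were not among the planned tests. The ratio of Gad1 to Slc32a1 was lower with Sirt6 shRNA by -0.37 (exact p = 0.0286, adjusted 0.0381), with all 4 Sirt6 shRNA arrays below all 4 scrambled arrays. That of Gad2 to Slc32a1 was lower by -0.28, with the same exact p and the same separation. Both ratios rest on 1 dim Slc32a1 probe with 1 spot per array, and how well it follows its transcript was not tested. The enzymes' own ratio, Gad1 to Gad2, differed by -0.09 and its groups overlapped (exact p = 0.0571). It stood at 4.39 to 4.45 with Sirt6 shRNA and at 4.43 to 4.57 with scrambled shRNA.

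Among the class markers, Cort fell most. Cortistatin is a secreted peptide of a subset of cortical and hippocampal interneurons. Probe A_44_P1082114 read 1158, 1070, 1059 and 1085 with Sirt6 shRNA, against 2837, 2374, 2519 and 2278 with scrambled shRNA. The lowest scrambled array was thus far above the highest Sirt6 shRNA array. The overlapping probe A_44_P345298 read 725, 643, 677 and 652 with Sirt6 shRNA, against 1683, 1401, 1614 and 1379 with scrambled shRNA. The log2 fold changes were -1.23 ± 0.080 and -1.21 ± 0.078 (SE, n = 4 each), and the limma adjusted p of the gene was 5.86e-05. Cort thus stood at 42.6% of its scrambled level and ranked 142 of the 22549 genes by p-value.

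Sst, the gene of somatostatin, gave no such fall. Its processed signals, each from 10 spots, were 19713, 17345, 18293 and 18061 with Sirt6 shRNA, against 21417, 19683, 19818 and 18373 with scrambled shRNA. The first Sirt6 shRNA array lay within the range of the scrambled arrays. The log2 fold change was -0.15 ± 0.065 (SE, n = 4 each; limma adjusted p = 0.119). Its 95% confidence interval of -0.30 to -0.00049 ended far short of the change in Cort. The ratio of Cort to Sst within an array was -4.11 to -4.02 (log2) with Sirt6 shRNA and -3.05 to -2.92 with scrambled shRNA, a difference of -1.08 ± 0.035 (SE; exact permutation p = 0.0286, adjusted 0.0381). After scaling, the gap in Cort between the groups was wider than the whole range of Sst over the 8 arrays. The separation of this ratio and its p-value therefore follow from Cort and add no support. By size, Cort fell further than Sst.

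Pvalb, the calcium buffer of fast-spiking interneurons, fell as well. Its 10 spots per array averaged 279, 347, 285 and 297 with Sirt6 shRNA, against 503, 529, 538 and 523 with scrambled shRNA. The second Sirt6 shRNA array was the highest of its group and still below every scrambled array. This was a log2 fold change of -0.84 ± 0.077 (SE, n = 4 each; limma adjusted p = 0.000212), or 55.9% of the scrambled level. A further probe, which the array design lists under a transcript identifier and which a RefSeq accession ties to Pvalb, gave -1.05 ± 0.078. Pvalb fell further than Gad1, the enzyme made in every interneuron: their ratio differed by -0.43 ± 0.11 (SE; exact permutation p = 0.0286, adjusted 0.0381). That call ended with normexp background correction, where the difference was -0.36 and the groups overlapped (exact p = 0.0571). In the main setting, the gap in Pvalb between the groups was wider than the whole range of Gad1. The exact permutation p of 0.0286 was therefore set by the single genes and adds no support to them.

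**Figure D2:**
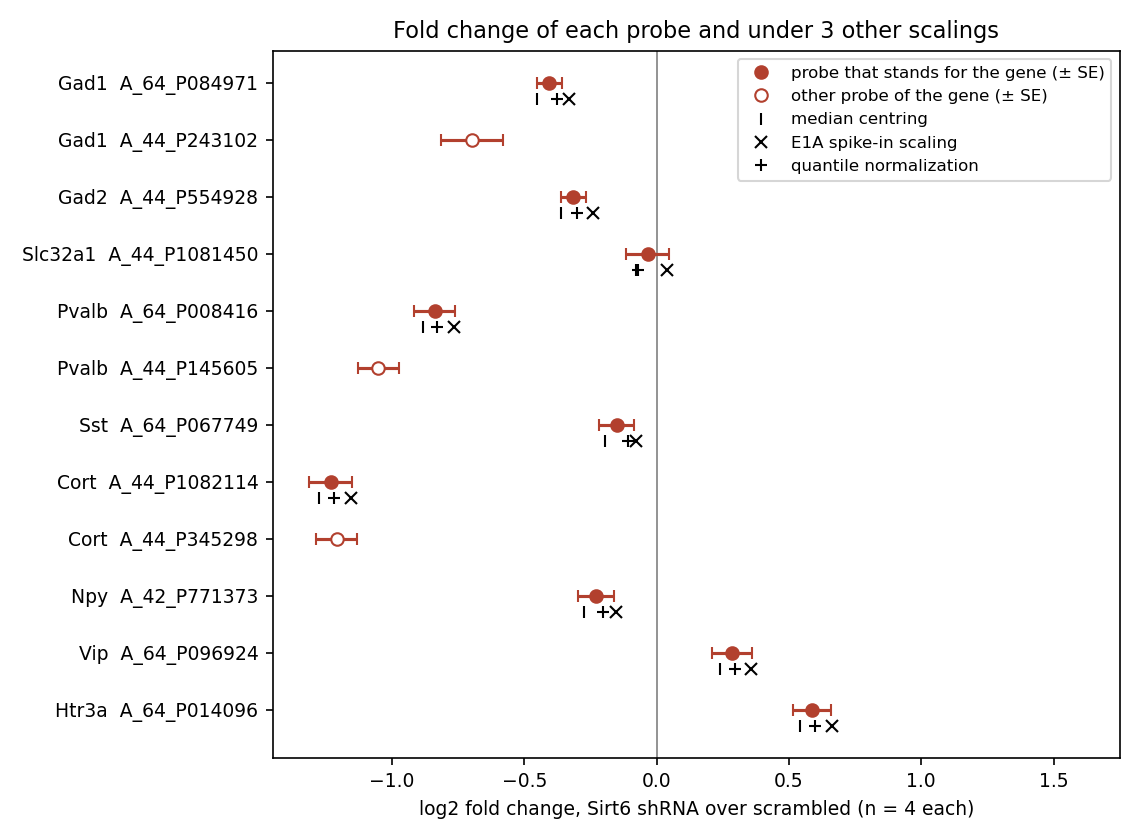
Log2 fold change, Sirt6 shRNA over scrambled (horizontal axis; bars give ± SE, n = 4 each), of each probe, filled where the probe stands for its gene and open for the other probes of Gad1, Pvalb and Cort. Marks under the filled points give the value with median centring, quantile normalization and spike-in scaling. Cort lies farthest left, at -1.23 and -1.21, Htr3a farthest right, at 0.59, and only Slc32a1 has marks on both sides of 0.

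Npy encodes neuropeptide Y, an inhibitory peptide of several interneuron classes. Its processed signals, from 10 spots per array, were 11312, 9495, 10801 and 11252 with Sirt6 shRNA, against 12797, 12064, 12354 and 11556 with scrambled shRNA. The Sirt6 shRNA arrays were all lower, with the highest of them close to the lowest scrambled array. Its log2 fold change came to -0.23 ± 0.069 (SE, n = 4 each; limma adjusted p = 0.0372). This call was lost without Sirt6 shRNA replicate 2 or 3 or scrambled replicate 1, 2 or 3 (adjusted p = 0.0634 to 0.0880). It was also lost without the filter on dim probes (0.0646), under spike-in scaling (-0.16, adjusted p = 0.348) and with the replicate number as a block (0.0528). The ratio of Npy to Sst differed by -0.08 and its groups overlapped (exact permutation p = 0.114).

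Htr3a and Vip, both markers of interneurons from the caudal ganglionic eminence, were higher with Sirt6 shRNA. Htr3a, a subunit of the serotonin-gated cation channel, read 589, 505, 578 and 570 with Sirt6 shRNA, against 400, 339, 363 and 350 with scrambled shRNA. The groups were well separated, although scrambled replicate 1 stood above the other 3 scrambled arrays. The log2 fold change was 0.59 ± 0.073 (SE, n = 4 each; limma adjusted p = 0.000859). Vip, a peptide of interneurons that mainly contact other interneurons, read 468, 407, 505 and 502 with Sirt6 shRNA, against 352, 350, 408 and 392 with scrambled shRNA. The second Sirt6 shRNA array came down to the level of the highest scrambled array, and the groups separated only after each array was scaled. The log2 fold change of Vip was 0.28 ± 0.075 (SE, n = 4 each; limma adjusted p = 0.0244). That call was lost without Sirt6 shRNA replicate 1, 3 or 4 or scrambled replicate 1 or 2 (adjusted p = 0.0548 to 0.0661), with median centring (0.0874), with spike-in scaling (0.0893) and without the filter on dim probes (0.0546).

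Set against Gad1 within the same array, both were higher with Sirt6 shRNA. The ratio of Htr3a to Gad1 was -4.14 to -4.04 (log2) with Sirt6 shRNA and -5.13 to -4.98 with scrambled shRNA, a difference of 0.99 ± 0.041 (SE), or 1.99-fold. That of Vip to Gad1 was -4.45 to -4.27 with Sirt6 shRNA and -5.16 to -4.94 with scrambled shRNA, a difference of 0.69 ± 0.069 (SE), or 1.61-fold. Neither pair of ranges overlapped, and each ratio gave an exact permutation p of 0.0286, adjusted to 0.0381 over the 8 ratios. After scaling, Htr3a and Vip were higher and Gad1 lower on every Sirt6 shRNA array than on any scrambled array. This separation and its p-value therefore follow from the single genes and add no support to them. The absolute height of such a ratio mixes the brightness of different probes and carries no meaning of its own, so only its shift between the groups is read here.

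**Figure D3:**
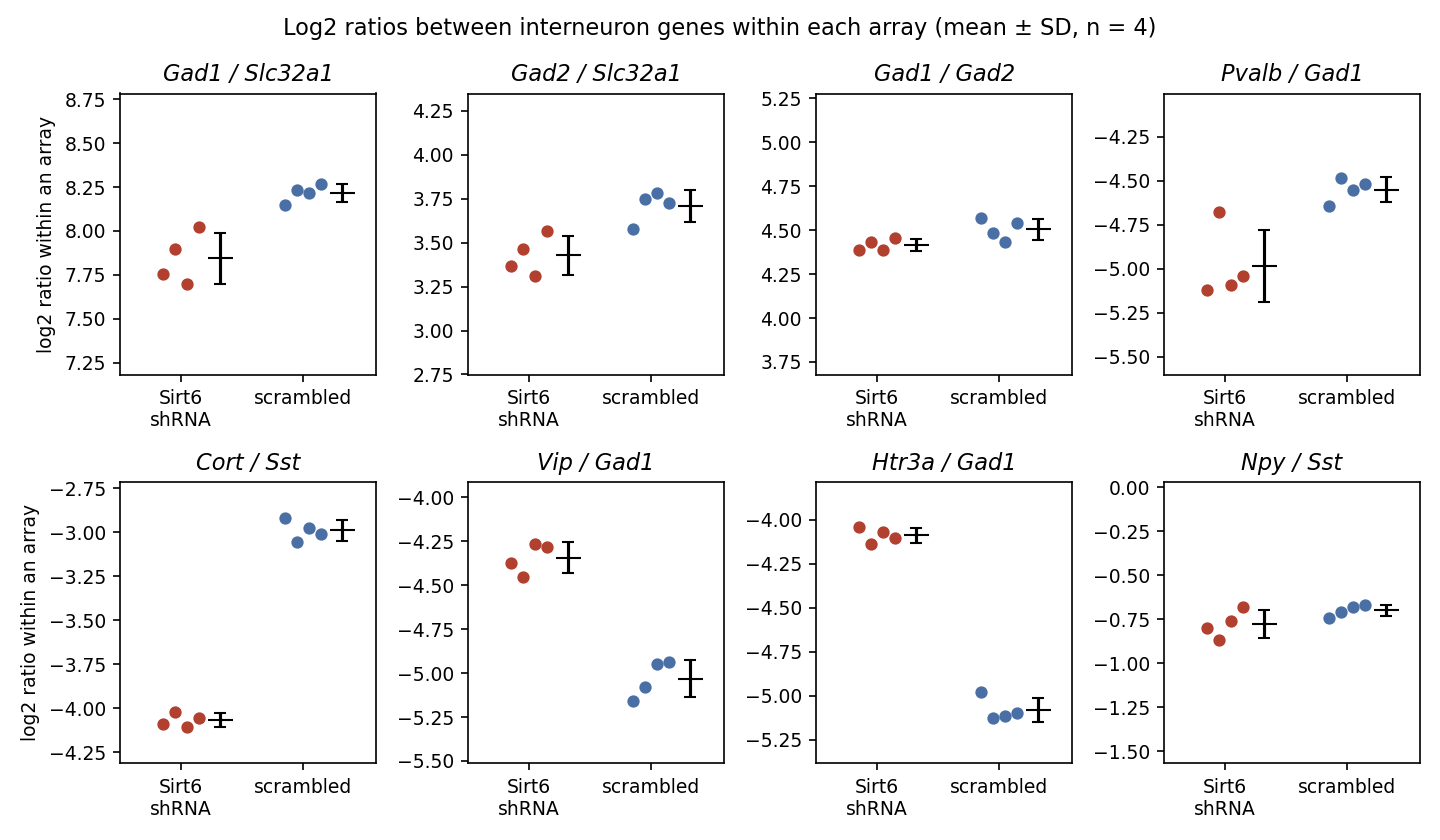
Log2 ratio of one interneuron marker gene to another within each array (vertical axis), 1 panel for each of the 8 ratios, with axes that cover the same span around different centres. Points are arrays, with Sirt6 shRNA left of scrambled, and bars give the mean ± SD (n = 4). Cort to Sst is shifted down by 1.08 and Htr3a to Gad1 up by 0.99 with Sirt6 shRNA, while Gad1 to Gad2 and Npy to Sst overlap.

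Of 18 tested transcription factors that specify interneurons, 2 were higher and 4 lower, a share of 33.3% beside the 30.4% called among all genes. Their median log2 fold change was -0.03. Sox6 (-0.30, adjusted p = 0.0115), Lhx6 (-0.23, 0.00305) and Dlx1 (-0.20, 0.00895) fell, by limma, and the other Sox6 probe gave -0.07. Lhx6 and Sox6 act in cells from the medial ganglionic eminence, the source of Pvalb and Sst cells, and Dlx1 in most forebrain interneurons. Satb1, which acts in the same medial lineage, rose by 0.25 (limma adjusted p = 0.00882), and its other probes gave as little as 0.03. Under spike-in scaling 1 of the 18 was called in place of 6, with 1 higher and 0 lower, so the falls of Sox6, Lhx6 and Dlx1 were not called.

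Of 24 other interneuron class markers, 7 were higher and 5 lower, with a median of 0.12. This is a share of 50%, beside the 30.4% called among all genes. Calb2, the calretinin gene, rose by 0.49 ± 0.061 (SE; limma adjusted p = 0.000873), a marker often found with Vip. Crhbp, a binding protein for corticotropin-releasing hormone often found in Sst cells, fell by 0.55 ± 0.093 (adjusted p = 0.00359, limma). Tac1, which encodes substance P, fell by 0.51 ± 0.054 (SE; limma adjusted p = 0.000418). Lamp5, a marker of neurogliaform cells, was -0.49 (limma adjusted p = 0.0315), a call lost in 4 of the 8 fits that each left out 1 array (adjusted p up to 0.0748). Markers of interneurons other than the 9 genes thus moved in both directions.

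Of 13 genes tied to fast-spiking Pvalb cells and their perineuronal nets, 1 was higher and 3 were lower. This is a share of 30.8%, beside the 30.4% called among all genes. Hapln1, a link protein of the nets, fell by 0.86 ± 0.083 (SE; limma adjusted p = 0.000256), and Ncan, the net proteoglycan neurocan, fell by 0.59 ± 0.043 (SE; adjusted p = 8.21e-05, limma). Ppargc1a, a coactivator needed for Pvalb expression in mouse, fell by 0.54 ± 0.12 (SE; limma adjusted p = 0.0117), and its other probe gave -0.28. Cox6a2, a subunit of cytochrome c oxidase enriched in Pvalb cells of mouse, rose by 0.63 ± 0.088 (SE; limma adjusted p = 0.00147). The list thus held changes both with and against the direction of Pvalb.

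GABA uptake and breakdown gave 3 higher and 3 lower genes of 14, a share of 42.9% beside the 30.4% called among all genes. Aldh5a1, the last enzyme of GABA breakdown, fell by 0.36 ± 0.054 (SE; limma adjusted p = 0.00210). Slc6a13 and Slc6a11, transporters found mainly outside neurons, rose by 0.53 and 0.43 (limma adjusted p = 0.000377 and 0.0184), Slc6a11 from a dim signal and with its call lost in 1 of the 8 fits that left out an array (adjusted p = 0.0512). Slc6a13 also stands in the list of fibroblast markers. Aldh5a1 thus moved in the direction of Gad1, and these transporters against it.

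Of 13 receptors for the peptides that these cells release, 4 were higher and 0 lower, a share of 30.8% beside the 30.4% called among all genes. Oprm1, the mu opioid receptor of many hippocampal interneurons, was 0.79 ± 0.15 (SE; limma adjusted p = 0.00548) at a dim signal, and its other probe gave 0.31. Vipr2, a receptor for Vip, rose by 0.43 ± 0.071 (SE; limma adjusted p = 0.00341). Sstr4, a receptor for somatostatin and cortistatin, had 0.27 (limma adjusted p = 0.0292), a call lost in 4 of the 8 fits that left out an array (adjusted p up to 0.0757). Adcyap1r1, the receptor for PACAP, had 0.15 (limma adjusted p = 0.0147), but its probes ran from -0.09 to 0.15. With median centring 2 of the 13 were called. The enzymes and granins that process and store peptides gave 3 higher and 1 lower of 13, again a share of 30.8%. Among them Scg5 rose by 0.34 and Furin by 0.30 (limma adjusted p = 0.000540 and 0.00425), and Cpe, the carboxypeptidase that trims peptide precursors, fell by 0.22 (adjusted p = 0.00244, limma). Scg2 had 0.12 (limma adjusted p = 0.0257), a call lost in 6 of the 8 such fits (adjusted p up to 0.0640).

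**Figure D4:**
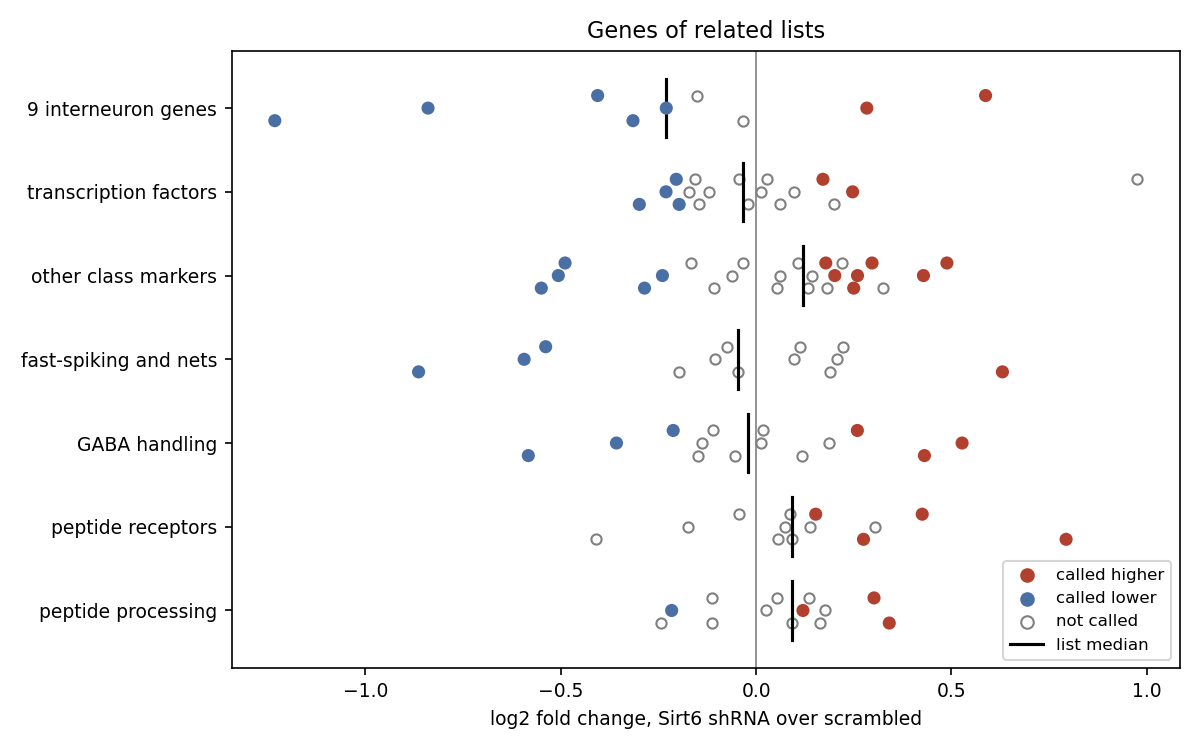
Log2 fold change, Sirt6 shRNA over scrambled (horizontal axis), of every tested gene in each list, 1 row per list with the 9 interneuron genes on top, called genes filled, genes not called open and a vertical bar at the list's median. The 6 related lists have genes on both sides of 0 and medians between -0.05 and 0.12, beside -0.23 for the 9 genes.

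Markers of other cells in the culture moved too. Their counts, here and in the next paragraph, stand beside 15.6% of all genes called higher and 14.8% called lower. The summed scaled signal of 13 excitatory neuron markers was 72.9 to 79.6 with Sirt6 shRNA and 69.4 to 74.3 with scrambled shRNA, overlapping, with 5 genes higher and 0 lower, Slc17a6 among them at 0.40. Calb1 and Prox1 stand both in that list and among the interneuron markers. The 12 pan-neuronal markers summed to 182 to 205 with Sirt6 shRNA and 179 to 185 with scrambled shRNA, with 5 higher and 1 lower.

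Of 12 astrocyte markers 8 were lower and 1 higher, and their sum was 272 to 302 with Sirt6 shRNA, against 389 to 424 with scrambled shRNA. S100b (-1.42) and Gfap (-0.71) were among the lower, and Gjb6 was higher (1.15). Of 9 endothelial and mural markers 5 were higher and 0 lower, led by Tagln (2.14), a contractile protein of smooth muscle. Their sum was 11.7 to 14.3 with Sirt6 shRNA against 3.94 to 4.69 with scrambled shRNA. That sum mainly follows Tagln, the brightest of them, with a mean processed signal of 3516 with Sirt6 shRNA and 780 with scrambled shRNA. Oligodendrocyte markers gave 1 higher and 3 lower of 12, with sums of 43.9 to 45.7 and 49.0 to 54.3 in the same order of groups. Mbp, the main myelin protein, was -1.31 by its brightest probe and 0.03 by another. Microglial markers gave 0 higher and 3 lower of 12, at sums of 25.2 to 50.8 with Sirt6 shRNA and 35.9 to 50.6 with scrambled shRNA. The highest Sirt6 shRNA sum was on replicate 2, the array that was also highest of its group for Pvalb. After scaling, that array was the lowest of its group for Gad1, Gad2, Slc32a1, Sst, Npy, Vip and Htr3a. Fibroblast markers gave 5 higher and 2 lower of 9, at overlapping sums. The part of these cells in the values of the interneuron genes was not tested. The summed scaled signal of the 9 interneuron genes was 118 to 132 with Sirt6 shRNA and 143 to 164 with scrambled shRNA. It mainly follows Sst, Gad1 and Npy, the brightest of the 9, of which Sst was not called.

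**Figure D5:**
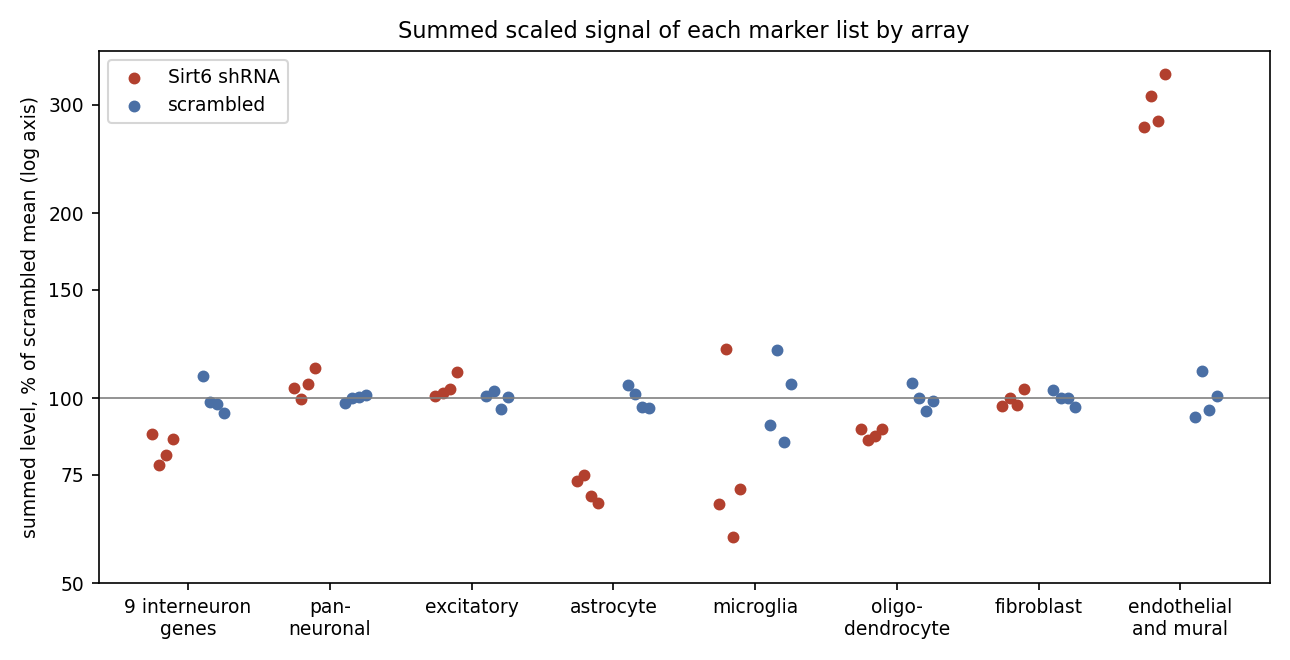
Summed scaled signal of each list on each array as a percentage of the scrambled mean (vertical log axis), with Sirt6 shRNA arrays left of scrambled arrays for each cell type. The astrocyte sums of the Sirt6 shRNA arrays lie below all scrambled arrays and the endothelial and mural sums above them, and the excitatory and pan-neuronal sums overlap between the groups. The endothelial and mural sum mainly follows Tagln.

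For each of the 9 genes, the genes with a RefSeq symbol whose normalized values ran most nearly parallel over the 8 arrays were found by Pearson's r. All 8 arrays share the difference between the groups, so a high r mainly restates it for a gene that changed. Gad1 ran closest to Taf9, Cptp and Itih2 (r = 0.996 to 0.995), Gad2 to Rabep1, Lss and Crim1 (0.995 to 0.988), and Pvalb to Hexa, Gltp and Crispld2 (0.998 to 0.997). Cort ran closest to Man2b2, Aff4 and Fam162a (all 0.997), and Npy to Bpnt2, Rps6ka1 and Cadps (0.979 to 0.970). Among the higher genes, Vip ran with Cyth3, Dnajc27 and Dleu7 (0.991 to 0.989) and Htr3a with Ctxn1, Cst6 and Rpp25 (0.996 to 0.995). Sst ran with Dkc1, Nf2 and Jak1 (0.982 to 0.965), and Slc32a1 with Abhd17b, Tasl and Nyap1 (0.978 to 0.920). None of the 9 genes was among the 3 closest to another of them, out of all the genes searched. Between the 9 genes, r still ran from -0.965 (Pvalb and Htr3a) to 0.985 (Gad1 and Cort), with 0.971 for Gad1 and Gad2. The high values among these again mainly restate the difference between the groups.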

How the data were processed

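The deposited spot intensity values are background-subtracted and detrended signals, made with Agilent Feature Extraction 11.5.1.1, as the file headers and the submitters' processing notes state. The authors' deposited log2 values equalled the log2 processed signal minus a constant per array (SD of the difference at most 0.0029). Its columns had medians of -3.70 to -3.59 and a 75th percentile of 0.0075 to 0.01.

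After control spots and outlier spots had been dropped, log2 signals were averaged per probe and centred on the 75th percentile of an array's 45598 probes. Probes well above background on at least 4 of 8 arrays were kept (28620). Probes were named through RefSeq (GRCr8): 21109 by systematic name, 2754 by another accession, 5127 by current symbol and 354 by a former one, while 16254 kept the file's name. The brightest probe stood for a gene.

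Groups, taken from the labels, were fitted in limma 3.58.1 under R 4.3.3 (lmFit, eBayes, Benjamini-Hochberg, adjusted p under 0.05), which was tested on simulated data. The 9 genes and all lists were chosen with earlier results of these data known. The genes named were Sirt6, the 9 genes and, per list, up to 4 called genes of largest absolute fold change, or the 2 lowest p-values in a list with under 2 calls, plus the 3 genes of highest r for each of the 9. Only genes with a RefSeq symbol were eligible for that last choice, a limit set after the data were seen. The rule also named 1 gene that is not reported here. Within-array ratios used exact permutation tests. Alternatives were normexp (offset 50), quantile normalization, median centring, scaling on 7 E1A spike-in probes, the authors' values, other filters and probe rules, 16 added to each signal, eBayes with trend and robust options, a replicate block and leaving out each array. The ratios' alternatives were chosen after seeing the data. The number of arrays limits the precision.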

Additional observations from a re-analysis of the deposited data

Results flagged for a closer look

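Htr3a on scrambled replicate 1 stood apart from its group, at a normalized log2 level of 0.353, while the other 3 scrambled arrays lay between 0.083 and 0.126. The gap made up 0.841 of the range of the group. It was 1 of 22 groups of 4 arrays examined this way, and chance marks about 1 in 20. All 4 Sirt6 shRNA arrays were above this array, and Htr3a stayed called when each array was left out in turn (limma adjusted p at most 0.00407).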

How the results depend on the processing

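Of the 20 alternatives, each changing 1 setting, Cort, Pvalb, Gad1 and Htr3a stayed called in the same direction under all 20, and Sst stayed uncalled (adjusted p 0.0535 to 0.593). The fold changes ran from -1.28 to -1.16 for Cort, -0.95 to -0.74 for Pvalb, -0.55 to -0.33 for Gad1 and 0.54 to 0.66 for Htr3a. Gad2 lost its call under 1 alternative and Npy and Vip under 8 each, given above. Slc32a1, never called, changed sign under spike-in scaling (0.040) and ran from -0.076 to 0.015 when 1 array was left out. Spike-in scaling called 4 of the 9 genes (1 higher, 3 lower), 3266 of all genes in place of 6866 and 19 in place of 36 genes of the related lists. It shifted the median of all genes to 0.10. The share of called genes that were higher was 51.3%, against 35.2% with median centring and 64.1% with spike-in scaling. The replicate number as a block gave 6422 genes in all and 6 of the 9. Deviations of same-numbered arrays correlated at 0.034 to 0.162, so the numbers were not taken to pair the samples, and 2 of 4 numbers had arrays that correlated best with their own. With 1 array left out, 5307 to 6593 genes were called, with 5 to 7 of the 9 and 28 to 40 of the related lists. Without the filter on dim probes 5216 genes were called, 5 of them among the 9. Other list counts that moved over 1.5 times were peptide processing (4; 7 with normexp, 8 with trend and robust options, 2 on spike-ins), other interneuron markers (12; 6 on spike-ins, 6 without the filter, 7 without Sirt6 shRNA replicate 3 or scrambled replicate 4), GABA uptake and breakdown (6; 3 on spike-ins), pan-neuronal (6; 3 on spike-ins), oligodendrocyte (4; 1 on spike-ins) and microglial markers (3; 1 to 10 over the alternatives). Gad1 to Gad2 reached an exact permutation p of 0.0286 with normexp (-0.13) and quantile normalization (-0.08). The causes were not tested.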
